A study of Mus musculus with 43 samples.

Results

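Fragments of the RNAs that the mitochondrial genome itself encodes for its translation machinery were described here in the epididymis of wild-type (WT) and Rnase9-12 knockout (KO) mice. The members were the rows SSU_mito and LSU_mito, the rRNAs of the small and large mitochondrial ribosomal subunits, and each row named mt-tRNA. They made up 23 of the 5364 small RNA rows that the count tables of tissue, fluid and sperm list in all. Tissue and sperm had a row for all 23, of which 21 were mt-tRNAs, and fluid had 12, of which 10 were mt-tRNAs. Of these, 22 passed a filter on low counts in tissue, whereas 5 did so in fluid and 16 in sperm. The remaining members are described by their counts only.

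The 43 libraries came from FVB males of 8 to 12 weeks and were either WT or homozygous for a CRISPR/Cas9 deletion of the locus that holds Rnase9, Rnase10, Rnase11 and Rnase12, which encode RNase A family proteins of the epididymis. Tissue was taken from the caput, corpus and cauda, the segments that sperm pass in this order, with 3 WT and 3 KO libraries each, except for corpus KO with 2. Luminal fluid, freed of sperm, debris and extracellular vesicles, was taken from the same segments with 3 WT and 3 KO libraries each, and cauda sperm gave 4 WT and 4 KO libraries. RNA of 3 mice was pooled for each library of fluid or sperm, and how many mice gave a tissue library is not stated in the sources used here. Tissue RNA was sequenced by ARM-seq and fluid and sperm RNA by OTTR-seq, which copy RNA into libraries in different ways, so levels were not compared between tissue and the other materials. The tables hold no row of the deleted genes, so they cannot check the genotype.

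Tissue libraries held 30142156 to 249732714 summed counts. Fluid libraries were shallower, with 1948718 to 12320922, and sperm libraries spanned 1134840 to 62128314. These sums can count a read on several rows. Replicate 3 was the deepest library of each tissue group that had one, so the tissue counts are also given without the replicate 3 libraries. In 7 libraries, all 6 of caput fluid and WT caput tissue replicate 3, one label field names the cauda while the title names the caput, and they were read as caput. Levels are CPM, the counts divided by library size after scaling by the trimmed mean of M values (TMM) and set to a common size, and a difference was called at an adjusted p below 0.05 with a log2 fold change past 1 in edgeR's quasi-likelihood test over all RNAs of a table.

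Mitochondria keep a small circular genome that encodes subunits of the respiratory chain together with the rRNAs and tRNAs needed to translate them. Both strands are transcribed into long precursors in which tRNAs lie between the other genes, and the release of each tRNA by cuts at both its ends also frees the neighbouring rRNA or mRNA. In these bulk samples, fewer cells of a type and less RNA per cell cannot be told apart.

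In the mouse genome (GRCm38, the assembly also known as mm10), SSU_mito is the gene mt-Rnr1 at chrM:70-1024 and LSU_mito is mt-Rnr2 at chrM:1094-2675, both on the + strand. The tRNAs below were called between WT cauda and caput tissue (Leu, Trp, Asp, Lys, Arg, His and Tyr), or their gene lies between both rRNA genes without sharing their call (Val). Thr was called as well and is not shown. Each is the whole gene in the GENCODE transcript set, 5′ to 3′, as DNA, with the anticodon in capitals.
mt-tRNA-Val-TAC (gene mt-Tv, chrM:1025-1093, + strand): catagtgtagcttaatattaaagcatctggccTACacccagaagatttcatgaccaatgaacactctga
mt-tRNA-Leu-TAA (gene mt-Tl1, chrM:2676-2750, + strand): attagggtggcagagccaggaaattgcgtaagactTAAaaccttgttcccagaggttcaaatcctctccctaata
mt-tRNA-Trp-TCA (gene mt-Tw, chrM:4950-5016, + strand): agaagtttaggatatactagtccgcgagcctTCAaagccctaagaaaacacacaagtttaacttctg
mt-tRNA-Asp-GTC (gene mt-Td, chrM:6942-7011, + strand): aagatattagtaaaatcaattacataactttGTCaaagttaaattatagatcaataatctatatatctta
mt-tRNA-Lys-TTT (gene mt-Tk, chrM:7700-7764, + strand): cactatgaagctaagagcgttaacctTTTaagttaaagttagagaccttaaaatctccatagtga
mt-tRNA-Arg-TCG (gene mt-Tr, chrM:9808-9875, + strand): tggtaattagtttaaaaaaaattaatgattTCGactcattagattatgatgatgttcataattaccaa
mt-tRNA-His-GTG (gene mt-Th, chrM:11546-11612, + strand): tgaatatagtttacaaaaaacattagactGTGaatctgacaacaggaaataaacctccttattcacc
mt-tRNA-Tyr-GTA (gene mt-Ty, chrM:5260-5326, - strand): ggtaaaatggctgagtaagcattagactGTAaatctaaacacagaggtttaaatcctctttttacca
The gene of mt-tRNA-Val-TAC fills the stretch from the end of mt-Rnr1 to the start of mt-Rnr2, and that of mt-tRNA-Leu-TAA begins at the base after mt-Rnr2. The gene of mt-tRNA-Arg-TCG lies between mt-Nd3 and mt-Nd4l, and that of mt-tRNA-Lys-TTT between mt-Co2 and mt-Atp8. Of the tRNAs shown, mt-tRNA-Tyr-GTA alone is on the − strand.

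Mitochondrial rRNA fragments rose along WT epididymis tissue from caput to cauda. In SSU_mito, the 3 WT caput libraries held 29.0, 38.5 and 35.7 CPM, the corpus libraries 246, 318 and 97.4 CPM, and the cauda libraries 863, 1458 and 584 CPM. In LSU_mito, the WT caput libraries held 98.9, 118 and 154 CPM, the corpus libraries 824, 861 and 348 CPM, and the cauda libraries 1984, 3978 and 1524 CPM. For both RNAs each cauda library was above each corpus library and each corpus library above each caput library. Between cauda and caput the log2 fold change was 4.82 (SE 0.53, adjusted p = 1.396e-05, edgeR) for SSU_mito and 4.34 (SE 0.50, adjusted p = 1.757e-05) for LSU_mito.

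**Figure D1:**
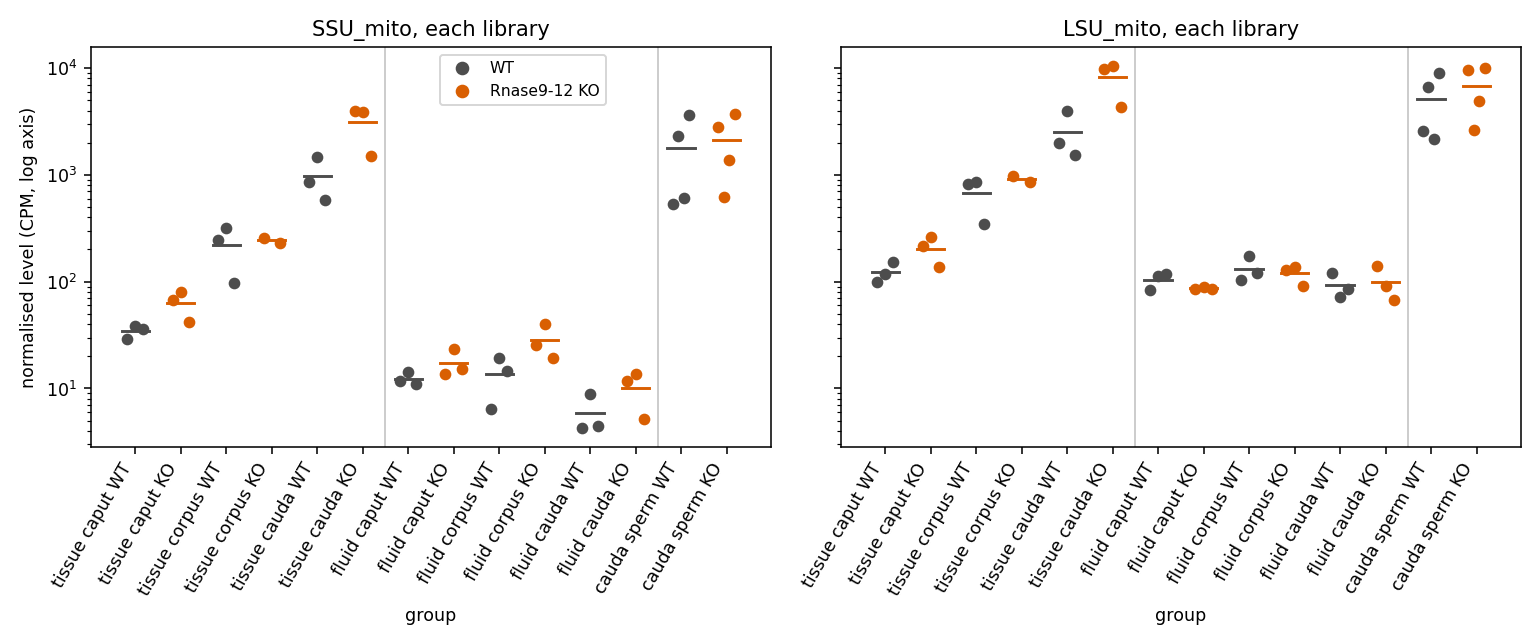
CPM of SSU_mito and LSU_mito in each library on a log axis, by material, segment and genotype, with 1 point per library and a bar at the group mean. In WT tissue the points of SSU_mito climb from 29.0 to 38.5 CPM in caput to 584 to 1458 CPM in cauda, and KO cauda tissue lies higher still at 1497 to 3978 CPM.

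Of the 22 members tested, 10 were called higher in WT cauda than in WT caput tissue and 0 lower, whereas 15.7% of all 3488 RNAs tested were called higher. The median log2 fold change of the members was 1.5, beside -0.05 over all RNAs tested. The called tRNAs were mt-tRNA-Arg-TCG, Lys-TTT, Trp-TCA, Leu-TAA, Asp-GTC, Thr-TGT, His-GTG and Tyr-GTA, so 8 of the 20 tested. In mt-tRNA-Trp-TCA, the WT caput libraries held 0.205, 0.0731 and 0.0666 CPM and the cauda libraries 0.929, 0.916 and 1.23 CPM, a log2 fold change of 3.21 (SE 0.48, adjusted p = 9.176e-05). In mt-tRNA-Lys-TTT, the values were 0.131, 0.341 and 0.15 CPM in caput and 2.52, 2.90 and 0.660 CPM in cauda, and the log2 fold change was 3.29 (SE 0.68, adjusted p = 0.001555). The groups did not overlap in either tRNA. The log2 fold change of mt-tRNA-Arg-TCG was 4.53 (SE 0.73, adjusted p = 0.00019), but on few reads, with 0, 0 and 14 counts in WT caput and 16, 20 and 72 in WT cauda.

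Other called tRNAs changed less. The log2 fold change was 2.67 in Leu-TAA (adjusted p = 0.01959), 2.32 in Asp-GTC (adjusted p = 0.005915), 2.21 in Thr-TGT (adjusted p = 0.01192), 1.67 in His-GTG (adjusted p = 0.02627) and 1.56 in Tyr-GTA (adjusted p = 0.01881). The WT cauda and caput libraries of Tyr-GTA overlapped although it was called. The tRNA between the rRNA genes, Val-TAC, was not called, with 7.28, 10.4 and 5.28 CPM in caput, 15.5, 33.1 and 5.33 CPM in cauda and a log2 fold change of 1.23 (SE 0.79, adjusted p = 0.2976). By strand, 7 of 13 tested tRNAs on the + strand and 1 of 7 on the − strand were called higher, and the difference between the strands was not tested. The Ensembl annotation of the same mitochondrial tRNA genes, counted in rows of its own, gave 5 of 20 called higher and 0 lower. All 20 had a positive log2 fold change, with a median of 1.26. For Trp that row held 0.0747, 0.0366 and 0.128 CPM in WT caput and 0.166, 0.0382 and 0.122 CPM in WT cauda. For Lys it held 0.0467, 0.134 and 0.0666 CPM in caput and 0.232, 0.305 and 0.0738 CPM in cauda. For Asp it held 0.373, 0.488 and 0.0916 CPM in caput and 0.531, 0.420 and 0.0956 CPM in cauda. The segments overlapped in each of these Ensembl rows.

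Fragments of cytosolic rRNA, which the nucleus encodes, were also higher in cauda than in caput tissue. In WT the log2 fold change was 3.97 (SE 0.53, adjusted p = 4.095e-05) for 18S rRNA and 3.31 (SE 0.46, adjusted p = 5.187e-05) and 3.37 (SE 0.47, adjusted p = 5.51e-05) for the first and second 28S rRNA sequence. These were 3 of the 5 cytosolic rRNA sequences tested. The 5.8S rRNA, at 0.96, and the 5S rRNA, at 0.54, were not called. The summed level of 4 smooth muscle microRNAs moved with the WT segments as well. It was 20.6 to 40.3 CPM in WT caput, 44.2 to 87.8 CPM in WT corpus and 108 to 216 CPM in WT cauda. At least 2 of the 4 were above 0 in each WT corpus library. In KO tissue their sum was 23.5 to 39.9 CPM in caput, 24.3 to 29.6 CPM in corpus and 108 to 141 CPM in cauda. The 5 epithelial microRNAs summed to 7.57 to 22.5 CPM in WT caput and 8.67 to 15.7 CPM in WT cauda tissue. The 3 microRNAs of germ cells summed to at most 0.327 CPM in WT caput and 0.278 CPM in WT cauda tissue. The part of these cell types in the segment difference was not tested.

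For both rRNAs the corpus lay between the other segments, whereas no mt-tRNA was called from corpus to cauda. From WT caput to WT corpus, 6 of 22 members were called higher and 0 lower, where 9.0% of all RNAs were called higher, and the median of the members was 1.80, beside 0.08 over all RNAs. SSU_mito was higher by a log2 fold change of 2.68 (SE 0.48, adjusted p = 0.002044) and LSU_mito by 2.46 (SE 0.46, adjusted p = 0.002323). The tRNAs called were Arg-TCG at 3.09 (adjusted p = 0.0102), Lys-TTT at 2.52 (adjusted p = 0.01749), Trp-TCA at 2.18 (adjusted p = 0.005655) and His-GTG at 2.03 (adjusted p = 0.01669). From WT corpus to WT cauda, both rRNAs were called higher, SSU_mito by 2.14 (SE 0.47, adjusted p = 0.01747) and LSU_mito by 1.88 (SE 0.45, adjusted p = 0.02853), where 3.24% of all RNAs were called higher. In this last step no mt-tRNA was called by edgeR or by DESeq2, 8 of 20 had a positive and 12 a negative log2 fold change, and the median of the tRNAs was -0.19. Val-TAC, for example, averaged 7.66 ± 2.59 (SD, n = 3) CPM in WT caput, 31.3 ± 18.8 (SD, n = 3) CPM in WT corpus and 17.95 ± 14.0 (SD, n = 3) CPM in WT cauda tissue. The smallest p among them belonged to Trp-TCA at 1.03 (adjusted p = 0.2457) and Arg-TCG at 1.45 (adjusted p = 0.2549).

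The counts called depended on how the replicates entered the fit. Same-numbered tissue libraries deviated together across segments, and in a fit that blocks on replicate number 16 of 22 members were called higher in WT cauda than in WT caput, beside 19.7% of all RNAs, and 21 of 22 in WT corpus than in WT caput, beside 15.2%. Without the replicate 3 libraries 19 and 20 members were called in these comparisons, out of 813 and 716 RNAs called in all. Without WT caput replicate 3 alone, whose label fields disagree, 8 and 5 members were called, out of 781 and 402 RNAs called in all. For WT cauda against WT corpus, leaving out WT cauda replicate 2 left neither rRNA called, with adjusted p = 0.07122 for SSU_mito and 0.1292 for LSU_mito. Leaving out WT corpus replicate 2 or 3 left SSU_mito alone called, with adjusted p = 0.05347 and 0.07438 for LSU_mito.

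In KO tissue the rise from caput to cauda was also found. In SSU_mito the KO caput libraries held 67.0, 79.2 and 41.9 CPM, the KO corpus libraries 258 and 231 CPM, and the KO cauda libraries 3978, 3838 and 1497 CPM. In LSU_mito the values were 214, 259 and 138 CPM, then 982 and 862 CPM, then 9873, 10552 and 4332 CPM. The KO segments did not overlap in either rRNA. Between KO cauda and KO caput, SSU_mito differed by a log2 fold change of 5.63 (SE 0.55) and LSU_mito by 5.34 (SE 0.53), both with adjusted p = 8.152e-06.

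Of the 22 members, 12 were called higher in KO cauda than in KO caput tissue and 0 lower, where 17.1% of all RNAs were called higher. With the replicate block the count was 20, beside 22.1% of all RNAs. Without the replicate 3 libraries all 22 tested members were called. The share of all RNAs called in that fit is not given here, so the count cannot be set against it. Of the 10 tRNAs called, those with the smallest p were Arg-TCG at 4.88, Asp-GTC at 3.90, Trp-TCA at 2.88 and Lys-TTT at 4.11. Arg-TCG gave few reads, with 2, 4 and 20 counts in KO caput and 18, 52 and 70 in KO cauda. The 18S rRNA differed by 4.45 and the first 28S rRNA sequence by 3.43, so 4 of the 5 cytosolic rRNA sequences were called here, 5.8S rRNA at 1.47 included.

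KO cauda tissue held more mitochondrial rRNA fragments than WT cauda tissue in each library, but no member passed the test across all RNAs. KO against WT, LSU_mito differed by a log2 fold change of 1.73 (SE 0.45, unadjusted p = 0.001402, adjusted p = 0.09402, edgeR) and SSU_mito by 1.68 (SE 0.46, unadjusted p = 0.002166, adjusted p = 0.09941). The lowest KO library, replicate 3 at 1497 CPM of SSU_mito, was close to the highest WT library, replicate 2 at 1458 CPM. Ordered by fold change, LSU_mito stood 37th and SSU_mito 55th of 3488 RNAs. For the comparison, 0.860% of all RNAs were called, or 1 higher and 29 lower.

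All 22 members tested had a positive log2 fold change in KO cauda tissue, with a median of 1.08, beside 1958 of 3488 and a median of 0.12 for all RNAs. By an unadjusted p below 0.05, 6 members were higher, among 270 of all RNAs higher and 257 lower, and DESeq2 called 2 members higher, among 69 of all RNAs higher and 106 lower. After the rRNAs came Lys-TTT at 1.71 (adjusted p = 0.1898), Asp-GTC at 1.53 (adjusted p = 0.1857), His-GTG at 1.47 (adjusted p = 0.1833) and Arg-TCG at 1.41 (adjusted p = 0.2561). In Asp-GTC, the WT cauda libraries held 2.59, 3.66 and 2.14 CPM and the KO cauda libraries 5.14, 14.0 and 4.94 CPM, without overlap. In His-GTG, the WT libraries held 30.5, 24.7 and 15.6 CPM and the KO libraries 61.7, 112 and 22.6 CPM, and the low KO library, replicate 3, fell within the WT range. In the Ensembl row for Asp, WT cauda held 0.531, 0.420 and 0.0956 CPM and KO cauda 0.462, 1.25 and 0.0847 CPM, with overlap. The Ensembl row for His held 22.7, 16.3 and 24.6 CPM in WT and 47.7, 86.3 and 34.9 CPM in KO, without overlap. Among the 20 Ensembl rows tested, 19 stood higher in KO cauda tissue and 1 lower, and edgeR called 0. Cytosolic rRNA sequences were between 0.22 and 0.63 higher on the log2 scale in KO and 0 of 5 were called.

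**Figure D2:**
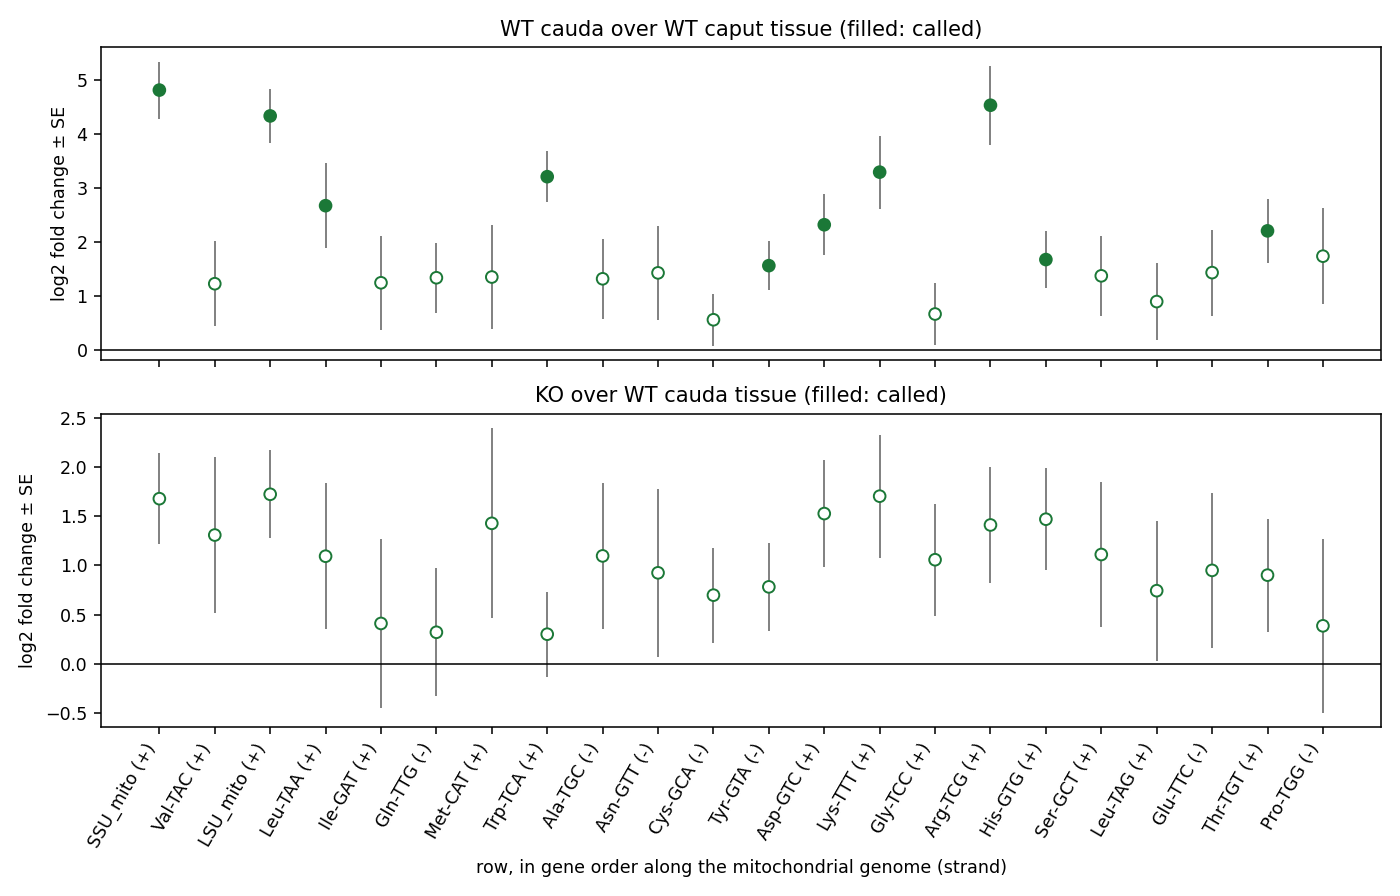
Log2 fold change with bars of 1 standard error (edgeR) for the 22 members tested, in gene order along the mitochondrial genome with the strand in brackets, for WT cauda over WT caput tissue (top) and KO over WT cauda tissue (bottom), where filled points were called. SSU_mito and LSU_mito stand at 4.82 and 4.34 in the top panel, where 10 points are filled, and in the bottom panel all points lie above 0 with none filled.

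Whether members were called in cauda tissue changed with the tool, with the pairing of libraries and with the replicate 3 libraries. The deviations of same-numbered WT and KO cauda libraries correlated at 0.28, 0.27 and 0.60 for replicates 1 to 3. In the fit blocked on replicate number, 7 of 22 members were called higher in KO and 0 lower, beside 5.79% of all RNAs called higher. These were SSU_mito at 1.66 (adjusted p = 0.001953), LSU_mito at 1.73 (adjusted p = 0.002795), Lys-TTT at 1.78 (adjusted p = 0.003041), Asp-GTC at 1.40 (adjusted p = 0.007354), His-GTG at 1.35 (adjusted p = 0.01403), Leu-TAA at 1.10 (adjusted p = 0.02214) and Met-CAT at 1.27 (adjusted p = 0.02378), each from edgeR. Without the replicate 3 libraries of tissue 8 members were called, with adjusted p = 0.0103 for both rRNAs, among 264 RNAs called in all. Without KO cauda replicate 3 alone the 2 rRNAs were called, among 77 RNAs called in all, with adjusted p = 0.04352 for LSU_mito and 0.04515 for SSU_mito. The smooth muscle microRNAs summed to 108 to 216 CPM in WT and 108 to 141 CPM in KO cauda tissue, the epithelial microRNAs to 8.67 to 15.7 CPM and 7.79 to 13.1 CPM, and the germ cell microRNAs to 0.0382 to 0.278 CPM and 0.220 to 0.462 CPM, and their part in the KO difference was not tested.

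In caput tissue, 0 of 22 members and 0% of all RNAs were called between KO and WT by edgeR, and by an unadjusted p below 0.05 there were 0 members and 34 RNAs. SSU_mito differed by 0.87 (SE 0.45) and LSU_mito by 0.72 (SE 0.44), both with adjusted p = 0.9996. Each KO caput library was above each WT caput library in SSU_mito, at 41.9 to 79.2 CPM against 29.0 to 38.5 CPM. In LSU_mito the ranges overlapped, at 138 to 259 CPM against 98.9 to 154 CPM. Of the members, 21 had a positive log2 fold change, with a median of 0.56 beside 0.04 over all RNAs. The tRNAs with the smallest p were Tyr-GTA at 0.91 and Arg-TCG at 1.07. Arg-TCG gave few reads, with 0, 0 and 14 counts in WT and 2, 4 and 20 in KO caput.

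In corpus tissue 0 of 22 members and 0% of all RNAs were called between KO and WT by edgeR, and 1 member and 279 RNAs had an unadjusted p below 0.05, while DESeq2 called 24 RNAs and 0 members. LSU_mito differed by 0.44 and SSU_mito by 0.15. The member with the smallest p, Arg-TCG, was lower in KO by 1.89 on the log2 scale (adjusted p = 0.5812), at 0.0287 and 0.0664 CPM against 0.215, 0.279 and 0.106 CPM in WT. This rests on few reads, with 2 and 6 counts in KO and 12, 12 and 24 in WT. Trp-TCA came next at -0.63.

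Whether the KO difference itself differed between segments was tested by interaction terms, which called 0 members in tissue, as 0% of all RNAs. Between cauda and caput the KO effect on LSU_mito differed by 1.0 and that on SSU_mito by 0.81, and between cauda and corpus by 1.28 and 1.53, with adjusted p = 0.6159 for both of the latter. Between corpus and caput the values were -0.28 and -0.72. Among the tRNAs, Asp-GTC gave 1.58 for cauda minus caput and 1.82 for cauda minus corpus, and Gly-TCC gave 1.04 for cauda minus caput. Arg-TCG gave -2.96 for corpus minus caput and 3.31 for cauda minus corpus, on few reads in caput and corpus. Trp-TCA gave -1.27 for corpus minus caput. By an unadjusted p below 0.05 there were 0 members for cauda minus caput, 1 for corpus minus caput and 3 for cauda minus corpus, among 211, 134 and 258 of all 3488 RNAs, and DESeq2 with default settings called 0 members and 0 RNAs in each.

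**Figure D3:**
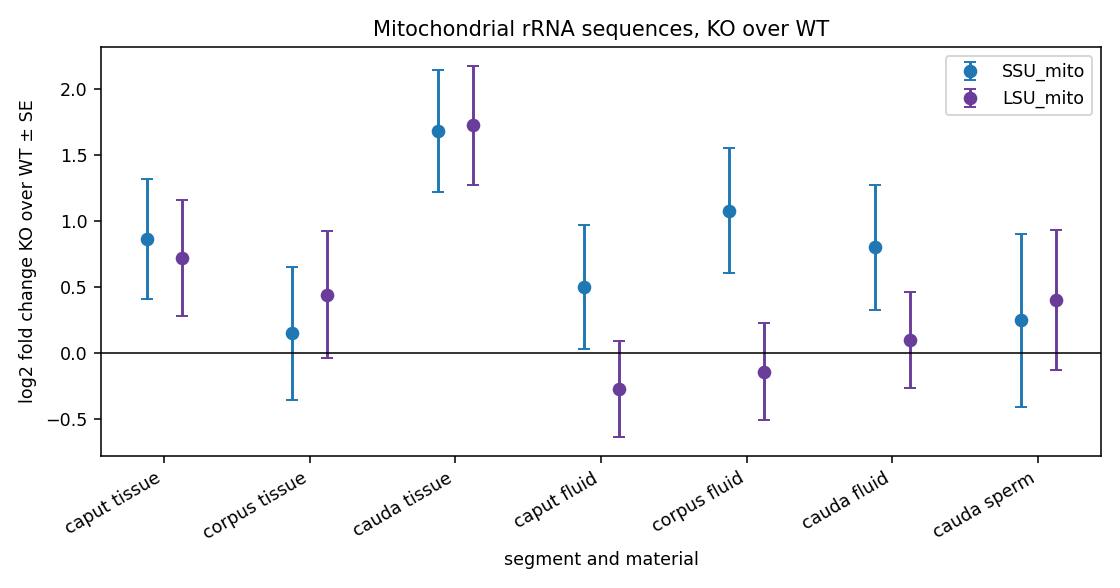
Log2 fold change of KO against WT for SSU_mito and LSU_mito in each segment of tissue and fluid and in sperm, with bars of 1 standard error from edgeR's quasi-likelihood test. Both stand highest in cauda tissue, at 1.68 and 1.73, and no point was called at an adjusted p below 0.05.

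Shares and ratios of counts, which do not depend on the scaling of libraries, were taken as well and have no test. Members took 0.0272% ± 0.0049 (SD, n = 3) of the summed counts in WT caput tissue, 0.10% ± 0.03 (SD, n = 3) in WT corpus and 0.318% ± 0.0414 (SD, n = 3) in WT cauda. In KO tissue the shares were 0.0378% ± 0.00749 (SD, n = 3) in caput, 0.115% ± 0.0104 (SD, n = 2) in corpus and 0.714% ± 0.0972 (SD, n = 3) in cauda. The KO cauda libraries, at 0.708%, 0.814% and 0.620%, were all above the WT cauda libraries, at 0.278%, 0.361% and 0.313%.

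The log2 ratio of mitochondrial to cytosolic rRNA counts (both 28S sequences, 18S and 5.8S) compares fragments of both kinds of ribosome within a library. WT caput tissue had a ratio of -6.51 ± 0.09 (SD, n = 3), while KO caput tissue had -5.77 ± 0.45 (SD, n = 3). WT corpus tissue had -5.61 ± 0.50 (SD, n = 3), while KO corpus tissue had -4.89 ± 0.15 (SD, n = 2). WT cauda tissue had -5.17 ± 0.32 (SD, n = 3), while KO cauda tissue had -3.75 ± 0.15 (SD, n = 3). The WT cauda libraries stood at -5.48, -4.84 and -5.18 and the KO cauda libraries at -3.80, -3.58 and -3.86. KO and WT libraries did not overlap in any of the 3 segments, but in corpus the highest WT library, at -5.03, was close to the lowest KO library, at -5.00. With 5S rRNA added to the cytosolic counts KO and WT overlapped in the corpus, where the highest WT library stood at -5.63 and the lowest KO library at -5.71. Expressed as counts, 36.5 ± 7.97 (SD, n = 3) cytosolic rRNA counts stood beside each mitochondrial one in WT cauda tissue, while KO cauda tissue had 13.5 ± 1.33 (SD, n = 3). The 28S sequences had close counts, 1196221 and 1316615 in WT cauda replicate 1, so a 28S read may be counted on both. The cytosolic counts may therefore be too high, in each material, and the number of reads per mitochondrial read lower than stated.

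**Figure D4:**
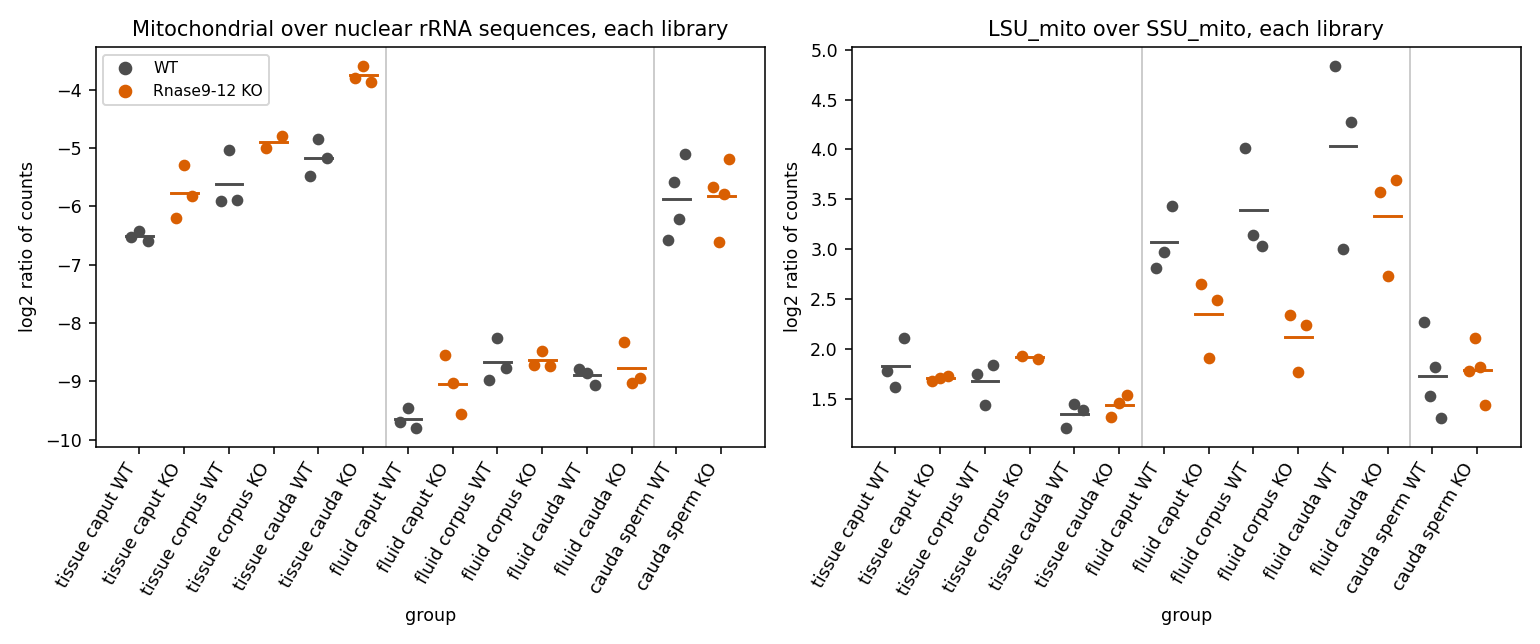
Log2 ratio of mitochondrial to cytosolic (nuclear-encoded) rRNA counts and log2 ratio of LSU_mito to SSU_mito counts in each library, by material, segment and genotype, with 1 point per library and a bar at the group mean. KO lies above WT in each tissue segment for the first ratio, narrowly so in corpus, and in caput and corpus fluid KO lies below WT for the second.

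The log2 ratio of LSU_mito to SSU_mito counts lay between 1.20 and 2.11 over the 17 tissue libraries. WT caput libraries, at 1.61 to 2.11, were all above WT cauda libraries, at 1.20 to 1.45, and WT corpus libraries lay at 1.44 to 1.84. The KO libraries lay at 1.67 to 1.72 in caput, within the WT range, at 1.90 and 1.93 in corpus, above each WT corpus library, and at 1.31 to 1.53 in cauda, overlapping with WT. LSU_mito is the longer RNA, with 1582 bases against 955. Per kilobase of gene, WT cauda tissue held 1577 CPM of LSU_mito and 1014 CPM of SSU_mito, and KO cauda tissue 5216 and 3251 CPM.

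Transfer RNAs and rRNAs did not move by equal amounts in tissue. Of the member counts, mt-tRNAs took 19.1% ± 6.30 (SD, n = 3) in WT caput, 12.2% ± 1.68 (SD, n = 3) in WT corpus and 2.81% ± 0.673 (SD, n = 3) in WT cauda tissue. In KO cauda tissue the share was 1.78% ± 0.813 (SD, n = 3), and it overlapped with WT. All mt-tRNA counts were even, so each fragment may have been counted on a pair of copies, and with the counts halved WT caput would have a share of 10.6% ± 3.80 (SD, n = 3), WT corpus one of 6.49% ± 0.95 (SD, n = 3), WT cauda one of 1.43% ± 0.347 (SD, n = 3) and KO cauda one of 0.901% ± 0.414 (SD, n = 3). Per kilobase, mt-tRNA-Val-TAC stood at 111 CPM and SSU_mito at 36 CPM in WT caput, whereas in WT cauda mt-tRNA-Val-TAC stood at 260 CPM and SSU_mito at 1014 CPM. The tRNA was thus the higher of the pair in caput and the lower in cauda, also at its halved levels of 55.5 and 130.1 CPM.

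The tRNAs that gave most fragments differed between tissue and sperm, which were prepared by different methods. In tissue, His-GTG made up 24.7% of mt-tRNA counts on average over 17 libraries (range 15.7% to 34.0%) and Val-TAC 20% (range 7.48% to 29.0%). Ser-GCT followed with 7.89%, Tyr-GTA with 5.85% and Asn-GTT with 5.52%. In sperm, Lys-TTT gave the most counts in each of the 4 KO libraries, with 28.3% ± 4.18 (SD, n = 4), before Arg-TCG with 14.0% and Asp-GTC with 9.51%. The 4 WT sperm libraries each had another leading tRNA, His-GTG in replicate 1, Asp-GTC in replicate 2, Cys-GCA in replicate 3 and Lys-TTT in replicate 4, and replicates 2 and 3 rest on few reads, with 44 counts of Asp-GTC and 26 of Cys-GCA. Lys-TTT made up 19.7% ± 15.6 (SD, n = 4) of mt-tRNA counts in WT sperm, within 6.67% to 42.3%, and Val-TAC made up 1.63% in WT and 0.719% in KO sperm. The tRNAs of the − strand gave between 16.8% and 31.9% of mt-tRNA counts in tissue and between 3.08% and 33.3% in sperm.

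**Figure D5:**
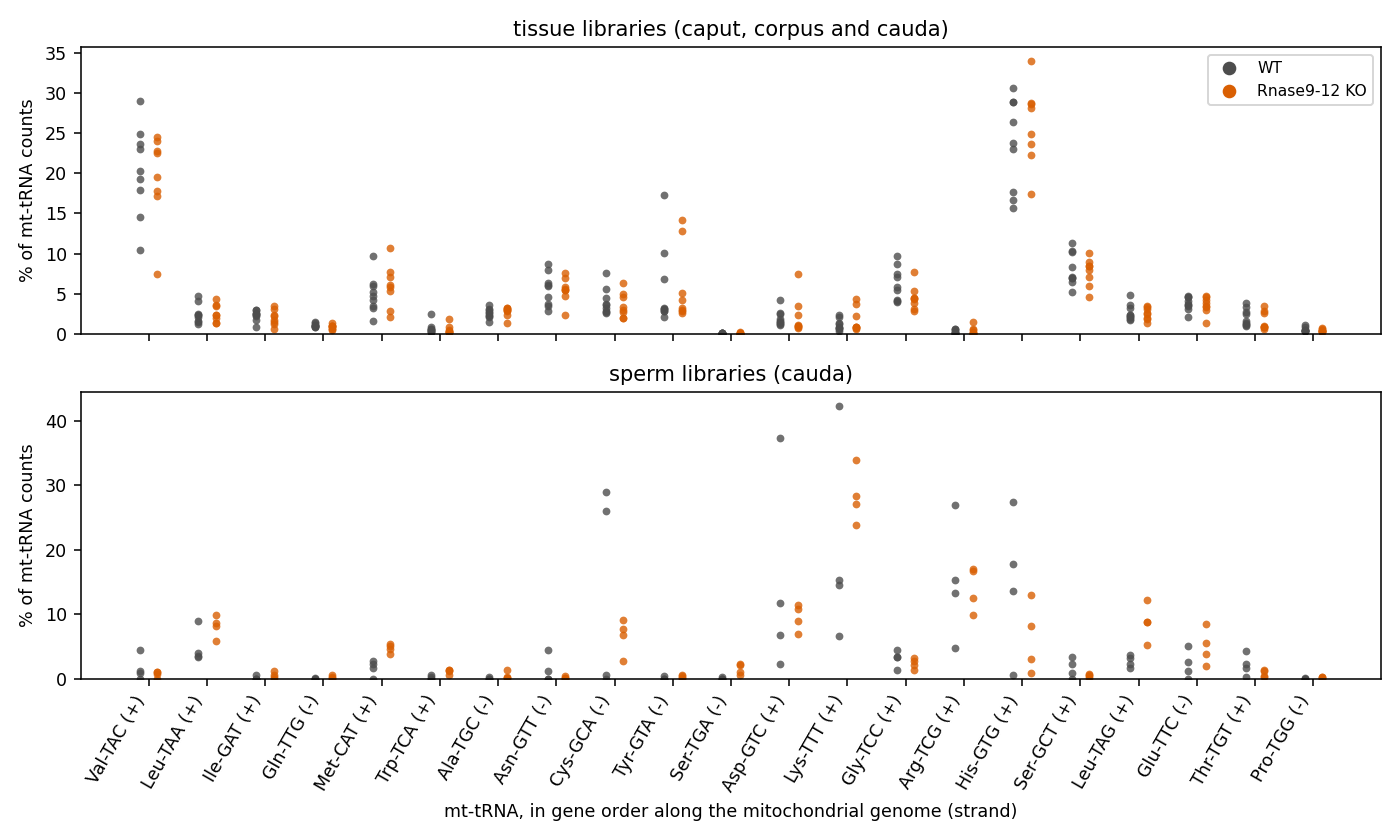
Percent of all mt-tRNA counts of a library taken by each mt-tRNA, in gene order along the mitochondrial genome with the strand in brackets, with 1 point per library of tissue (top, all segments) and sperm (bottom), grey for WT and orange for KO. His-GTG and Val-TAC lead in tissue, with means of 24.7% and 20%, and in sperm Lys-TTT is highest in all 4 KO libraries, with a mean of 28.3%, while the WT libraries spread from 6.67% to 42.3%.

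In fluid the members were rare and mostly from LSU_mito. They took between 0.00601% and 0.0201% of the summed counts of a library. LSU_mito gave between 222 and 2004 counts and SSU_mito between 26 and 287 counts per library. Of the 10 mt-tRNAs with a row, between 0 and 9 were detected per library, and over all 18 libraries the most frequent gave 82 counts (Asp-GTC), 76 counts (Cys-GCA) and 74 counts (Asn-GTT). A count of 3, below which an RNA listed at 0 may still be present, corresponds to between 0.211 and 1.24 CPM, so that differences in most mt-tRNAs were not detectable at this depth.

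Along the WT fluid, SSU_mito did not follow the rise seen in tissue. It stood at 11.8, 14.3 and 10.9 CPM in caput, 6.42, 19.5 and 14.7 CPM in corpus and 4.23, 8.89 and 4.42 CPM in cauda. Each cauda library was below each caput library, with a log2 fold change of -1.07 (SE 0.48, unadjusted p = 0.03533, adjusted p = 0.09723) that was not called. LSU_mito stood at 82.9, 112 and 118 CPM in caput, 104, 172 and 120 CPM in corpus and 121, 71.1 and 85.7 CPM in cauda, with a log2 fold change of -0.17 between cauda and caput. By edgeR 0 of the 5 members tested were called between WT cauda and WT caput fluid, beside 25.1% of all 2023 RNAs, and 2 had an unadjusted p below 0.05, among 798 RNAs, led by Cys-GCA (adjusted p = 0.05303). From WT caput to corpus 0 members were called beside 17.7% of all RNAs, with 1 at an unadjusted p below 0.05, among 633 RNAs. From WT corpus to cauda 0 members were called beside 2.17%, also with 1 at an unadjusted p below 0.05, among 572 RNAs. DESeq2 called 0 members in each of these comparisons, among 572, 392 and 126 RNAs. The part of the disagreeing label field of the caput fluid libraries cannot be told apart from the segment.

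Between KO cauda and KO caput fluid 1 of 5 members, Asp-GTC, was called lower (adjusted p = 0.008731), beside 26% of all RNAs. It gave 12, 36 and 10 counts in KO caput and 0, 0 and 0 in KO cauda fluid. With halved tRNA loci or with the compared groups alone Asp-GTC did not pass the filter on low counts and was not tested, and 0 members were called. LSU_mito differed by 0.20 and SSU_mito by -0.77, and neither was called.

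Between KO and WT fluid, the rRNAs were not called in any segment with the scaling used here. Under 1 other scaling LSU_mito was called lower in KO corpus fluid, as given with the alternatives below. SSU_mito differed by 0.50 in caput, by 1.08 in corpus (unadjusted p = 0.03286, adjusted p = 0.1134) and by 0.80 in cauda. LSU_mito differed by -0.27, -0.14 and 0.10. In corpus fluid SSU_mito stood at 6.42, 19.5 and 14.7 CPM in WT and 25.7, 40.5 and 19.5 CPM in KO. The share of all RNAs called was 0% in caput and cauda fluid and 19.7% in corpus fluid, where 1 of 5 members was called. That member, Asp-GTC, was at 0, 0 and 0 counts in WT and at 6, 6 and 0 counts in KO corpus fluid (adjusted p = 0.02985, edgeR). The call was lost when any 1 of 5 of the 6 libraries was left out. With halved tRNA loci and with the compared groups alone Asp-GTC did not pass the filter on low counts and was not tested. By an unadjusted p below 0.05 there were 0 members in caput, 3 in corpus and 0 in cauda fluid, among 214, 684 and 188 of all 2023 RNAs. DESeq2 called 0, 2 and 0 members, among 9, 465 and 42 RNAs. The tests of a difference in the KO effect between segments called 0 members in fluid, beside 0% of all RNAs for cauda minus caput, 1.83% for corpus minus caput and 7.37% for cauda minus corpus. By an unadjusted p below 0.05 there were 1, 0 and 1 members in these tests, among 221, 261 and 470 RNAs, and DESeq2 called 0, 0 and 1, among 23, 55 and 198 RNAs.

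In fluid LSU_mito outweighed SSU_mito by a log2 ratio of 1.77 to 4.84 over all libraries, where sperm, prepared by the same method, had 1.31 to 2.27. For WT caput fluid the log2 ratio of LSU_mito to SSU_mito was 3.07 ± 0.33 (SD, n = 3), against 2.35 ± 0.39 (SD, n = 3) for KO. For WT corpus fluid it was 3.40 ± 0.54 (SD, n = 3), against 2.12 ± 0.30 (SD, n = 3) for KO. For WT cauda fluid it was 4.04 ± 0.94 (SD, n = 3), against 3.33 ± 0.53 (SD, n = 3) for KO. KO and WT libraries did not overlap in caput and corpus fluid and overlapped in cauda fluid. In WT cauda fluid LSU_mito stood at 58.6 CPM per kilobase and SSU_mito at 6.12 CPM per kilobase. The ratio of mitochondrial to cytosolic rRNA, on the log2 scale, was between -9.81 and -8.26 over all fluid libraries.

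Sperm, whose flagellum carries mitochondria in its midpiece, held mitochondrial rRNA fragments in each library. WT sperm gave 0.709% ± 0.362 (SD, n = 4) of its summed counts to the members, against 0.737% ± 0.305 (SD, n = 4) for KO sperm. SSU_mito stood at 537, 2319, 612 and 3651 CPM in WT and at 2783, 615, 1387 and 3674 CPM in KO. LSU_mito stood at 2585, 6655, 2150 and 9023 CPM in WT and at 9507, 2654, 4899 and 9939 CPM in KO. Libraries of 1 genotype thus spanned a wide range, and WT and KO overlapped. Between KO and WT, LSU_mito differed by 0.40 (SE 0.53, adjusted p = 0.7818) and SSU_mito by 0.25 (SE 0.65, adjusted p = 0.8919).

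Of the 16 members tested in sperm, 0 were called by edgeR or DESeq2, and 1 had an unadjusted p below 0.05. Over all RNAs edgeR called 0%, with 434 of 2480 at an unadjusted p below 0.05, and DESeq2 called 140. The tRNAs with the smallest p were Thr-TGT at -1.33 (unadjusted p = 0.03383, adjusted p = 0.2276) and Leu-TAG at 1.44 (adjusted p = 0.3334). In Thr-TGT, the WT libraries held 2.82, 0.780, 1.06 and 0.723 CPM and the KO libraries 0.284, 0.673, 0.994 and 0.686 CPM. These rest on few reads, with 180, 2, 2 and 2 counts in WT and 8, 32, 66 and 2 in KO. In Leu-TAG, the libraries held 2.16, 0.780, 1.06 and 9.40 CPM in WT and 6.59, 4.37, 7.59 and 18.5 CPM in KO. The counts of Leu-TAG were 138, 2, 2 and 26 in WT and 186, 208, 504 and 54 in KO. WT replicate 4 was above the KO libraries 1 to 3 in Leu-TAG, and without it 4 members were called higher in KO, among 326 RNAs called in all, Leu-TAG included (2.51, adjusted p = 0.01293).

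WT sperm had a log2 ratio of mitochondrial to cytosolic rRNA of -5.87 ± 0.65 (SD, n = 4), against -5.81 ± 0.59 (SD, n = 4) for KO sperm. The log2 ratio of LSU_mito to SSU_mito was 1.73 ± 0.42 (SD, n = 4) for WT, against 1.78 ± 0.28 (SD, n = 4) for KO sperm. Mitochondrial tRNAs gave between 0.510% and 2.09% of the member counts. The 3 germ cell microRNAs summed to 17.9 to 47.0 CPM in WT and 30.2 to 43.2 CPM in KO sperm, the 5 epithelial microRNAs to 6.24 to 23.9 CPM and 16.3 to 23.3 CPM, and the 2 erythroid microRNAs to 2.64 to 7.80 CPM and 1.63 to 55.4 CPM. Their part in the level of the members was not tested.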

How the data were processed

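Small RNA libraries treated with polynucleotide kinase were prepared by ARM-seq (tissue) or OTTR-seq (fluid, sperm). The authors trimmed the reads, mapped them to mm10 with bowtie2 in a modified tRAX pipeline that added mitochondrial and cytosolic rRNA sequences, and deposited raw read counts per RNA. The submitters' processing notes also name cutadapt and UMI-tools. All best mappings of a read were kept, except that mappings to tRNAs, then to rRNAs and repeats, took precedence over others, and tRNA counts used reads specific to acceptor and anticodon. All 21 mt-tRNA rows of tissue and sperm and all 10 of fluid held only even counts in each library, as did all 338, 235 and 212 nuclear tRNA loci of tissue, fluid and sperm, so that fragments may have been counted on a pair of copies, and the counts were used as deposited.

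Each table was fitted on its own, all groups in 1 fit, with edgeR 4.0.16 in R 4.3.3 (filterByExpr with a minimum count of 10 and a minimum total of 15, TMM, glmQLFit and glmQLFTest, Benjamini-Hochberg over all RNAs tested). DESeq2 1.42.0 was an alternative. The SE is the log2 fold change divided by the root of F. The scripts were tested on simulated data. Shares and ratios were described with no test. Depth limits precision, and limits from counts cover counting error only. P-values measure the spread between libraries, which were not stated to be independent cohorts of animals. Sequences and coordinates came from GENCODE on GRCm38, with Python 3.11.15 and pandas 2.3.3.

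Replicate numbers were taken to pair libraries where the correlation of deviations exceeded 0.1 for each pair, which held in KO against WT cauda tissue (0.28, 0.27 and 0.60) and in the 4 segment comparisons of tissue. It did not hold in the other comparisons. The named RNAs were SSU_mito and LSU_mito, the 5 mt-tRNAs of highest mean CPM in each table, the called mt-tRNAs of each comparison (up to 6 by p) or else the 2 of smallest p, and the cytosolic rRNA sequences. Where more are named, they were chosen after their values were seen. The members and lists were chosen with earlier results of these data known.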

Additional observations from a re-analysis of the deposited data

Results flagged for a closer look

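In 4 of 24 groups of 4 sperm libraries tested, the gap of 1 library to its nearest neighbour, divided by the range of the group, was above Dixon's 95% critical value. For normally distributed values, chance flags about 1 in 20 such groups. The tRNA values were CPM without logs, so that rate need not hold here, and the tRNAs share their libraries. Leu-TAG and Thr-TGT were included because they had the smallest p between KO and WT sperm. WT sperm replicate 4 was the highest WT library for mt-tRNA-Arg-TCG at 69.4 CPM (gap over range 0.942), where the other WT libraries held 3.19, 7.02 and 6.35 CPM. It was also the highest for mt-tRNA-Lys-TTT at 109.1 CPM (0.939), beside 9.64, 7.02 and 3.17 CPM, and for mt-tRNA-Leu-TAG at 9.40 CPM (0.840), beside 2.16, 0.780 and 1.06 CPM. WT sperm replicate 1 was the highest for mt-tRNA-Thr-TGT at 2.82 CPM (0.840), beside 0.780, 1.06 and 0.723 CPM. Those other libraries held 2 counts each, as did WT replicates 2 and 3 in mt-tRNA-Leu-TAG.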

How the results depend on the processing

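In WT, SSU_mito and LSU_mito stayed higher and called in corpus and in cauda against caput tissue under each alternative run. For WT cauda against caput the log2 fold changes were 4.17 to 5.21 and 3.68 to 4.89. KO cauda against KO caput also kept direction and call, with 4.68 to 5.98 and 4.40 to 5.67, and KO corpus against KO caput was not tested. In WT cauda against corpus SSU_mito lost its call in 2 and LSU_mito in 4 of 16 alternatives. Other scalings moved the median of all RNAs, by up to -0.42 for WT cauda against caput tissue, -0.75 for KO cauda against caput tissue and -0.54 for KO against WT cauda tissue (library size only). In fluid, TMM without tRNAs and rRNAs moved it by -0.88 for KO against WT corpus and by 0.88 for the cauda minus corpus interaction. For KO against WT cauda tissue LSU_mito stayed between 1.19 and 2.01 and SSU_mito between 1.13 and 1.96 over 16 alternatives. Of the single-RNA values under an alternative, 1080 kept direction and call, 31 lost the call, 24 gained one and 23 changed sign. Of the counts and untested measures, 476 stayed close and 56 moved. Why a value moved was not tested, beyond what an alternative changes by its construction. The halved tRNA loci, DESeq2 with the block, and the runs without the replicate 3 tissue libraries were added after the data were seen.

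Members called in tissue moved as follows. In KO against WT cauda tissue, where 0 were called, DESeq2 called 2, the fit with the replicate block 7, DESeq2 with the replicate block 6 and the fit without the replicate 3 libraries 8, while leaving out 1 library gave 0 to 2. In WT cauda against caput the replicate block gave 16 with either tool and the fit without replicate 3 gave 19, with 8 to 10 when 1 library was left out. In WT corpus against caput DESeq2 gave 10, the replicate block 21, DESeq2 with the block 20 and the fit without replicate 3 gave 20, with 5 to 8 when 1 library was left out. In WT cauda against corpus the compared groups alone gave 0, and leaving out 1 library 0 to 2. In KO cauda against caput the replicate block gave 20, DESeq2 with the block 19 and the fit without replicate 3 gave 22, with 8 to 17 when 1 library was left out. The interaction terms gave 1 for cauda minus caput and 3 for cauda minus corpus under DESeq2 with the block. Of all RNAs, the edgeR fit with the replicate block called 5.79% higher in KO against WT cauda. It called 19.7% higher in WT cauda against caput, 15.2% in WT corpus against caput and 22.1% in KO cauda against caput. Where no number over all RNAs is given, here or for fluid and sperm, a count of members cannot be set against all RNAs.

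In fluid, the 1 call in KO against WT corpus became 2 with TMM without tRNAs and rRNAs, with DESeq2 with or without the block and with no filter on low counts. With TMM without tRNAs and rRNAs 1 member was called higher and 1 lower, the lower being LSU_mito. Over the 15 alternatives LSU_mito was called in 1, and its log2 fold change went down to -1.01. The count of calls became 0 with halved tRNA loci or the compared groups alone, where the filter removed Asp-GTC, and 0 to 1 when 1 library was left out. WT cauda against caput fluid gave 1 with no filter, and 1 with the replicate block, where SSU_mito was called lower at -1.16 (adjusted p = 0.03928, edgeR, pair correlations 0.11, 0.14 and 0.097), and 0 to 1 when 1 library was left out. WT corpus against caput gave 1 with no filter, and WT cauda against corpus gave 1 under DESeq2 with the block. In KO cauda against caput fluid 0 members were called with halved loci or the compared groups alone, where the filter removed Asp-GTC. The interaction of cauda minus corpus gave 1 with DESeq2, the replicate block or both. In sperm, leaving out 1 library gave 0 to 4 members called. The correlation of same-numbered libraries was not over 0.1 for every pair in KO against WT caput tissue (0.029, 0.52 and 0.72) and corpus tissue, in any fluid comparison or in sperm, and there the replicate block gave no further change past 1.5 times.

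Values that changed sign belonged to RNAs that were not called with the settings used here. SSU_mito in KO against WT corpus tissue was -0.034 with library size only, -0.0172 under DESeq2 with the replicate block, -0.38 without the replicate 3 libraries and -0.22 to 0.51 when 1 library was left out, and LSU_mito was -0.045 without the replicate 3 libraries. LSU_mito was 0.0072 for the corpus minus caput interaction of tissue with TMM without tRNAs and rRNAs. In WT cauda against caput fluid LSU_mito was 0.025 with DESeq2 size factors, 0.21 with TMM without tRNAs and rRNAs and 0.024 with DESeq2, and SSU_mito in sperm was -0.035 with library size only. When 1 library was left out, the range was -0.41 to 0.077 for LSU_mito in WT cauda against caput fluid, -0.36 to 0.023 and -0.27 to 0.33 for LSU_mito in KO against WT corpus and cauda fluid, -0.17 to 0.38 for LSU_mito in KO cauda against caput fluid, -0.0039 to 0.45 for SSU_mito in WT corpus against caput fluid, -0.20 to 0.93 for SSU_mito in sperm and -0.15 to 1.5 for mt-tRNA-Gly-TCC in the cauda minus caput interaction of tissue. With all other RNAs but repeat-derived ones as denominator, the share of members was 0.140% in WT and 0.197% in KO caput, 0.475% and 0.551% in corpus, 1.24% and 3.0% in cauda tissue, and 1.40% and 1.46% in sperm. With 5S rRNA added, the log2 ratio of mitochondrial to cytosolic rRNA was -7.43 and -6.80 in WT and KO caput, -6.12 and -5.61 in WT and KO corpus and -3.99 in KO cauda tissue. Depth limits the mt-tRNAs of fluid and sperm most.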
